A study of Homo sapiens with 4 samples.

Results

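ZNF217 CUT&Tag peaks at the promoters of long noncoding RNA (lncRNA) genes were examined in the human leukemia lines MV4-11 and U937. A peak belonged to this class when its midpoint lay within 1 kb of the start site (TSS) of any transcript of a GENCODE 44 lncRNA gene and more than 1 kb from the TSS of every transcript of a protein-coding gene. Of 58093 peaks on chromosomes 1 to 22 and X, 2730 met the rule, 1685 of 36356 in MV4-11 and 1045 of 21737 in U937. The remaining peaks were divided into coding promoter peaks, with the midpoint within 1 kb of a coding TSS (13523 in MV4-11 and 10115 in U937), and other peaks (21148 in MV4-11 and 10577 in U937).

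Both lines were grown without any treatment named in the labels, and each gave 1 ZNF217 library and 1 IgG library, of which the 2 IgG samples are not analysed here. MV4-11 carries a KMT2A fusion and U937 a PICALM fusion, and each is a single established line of monocytic character. In CUT&Tag a transposase tethered to an antibody cuts and tags the DNA around its target. The deposited values were the chromosome, start and end of each peak on hg38, without height, score or read count, so that width was the only magnitude and depth was unknown. No p-value was computed, since each line had 1 library. All intervals below are 95% intervals (Wilson for shares, Newcombe for differences of shares, exact for ratios and for shares of gene lists, and order-statistic for medians), and they cover counting error only, not the variation between cultures. RNA was not measured in these files, so a peak does not show that the lncRNA was transcribed.

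LncRNAs are RNA polymerase II transcripts without a long open reading frame. Some start from promoters of their own, some are transcribed antisense to a coding gene or away from a coding promoter, and others serve as the primary transcripts from which microRNAs or small nucleolar RNAs (snoRNAs) are cut. ZNF217 is a C2H2 zinc finger protein that is known to bind the CtBP and LSD1 corepressors, and the study assigned it to a circuit of core transcription factors of acute myeloid leukemia, which raises the question of which noncoding promoters carry it in both lines. CUT&Tag does not tell strands apart, and a peak between overlapping genes belongs to none of them in particular.

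As examples of these promoters, the central 300 bases of 7 MV4-11 peaks that overlapped a U937 peak are printed from hg38, plus strand, 5′ to 3′. They were picked after the values were seen, from shared peaks named by the rules given in the processing section. Capitals mark letters that match the ZNF217 core motif TGCAGAA, the C/EBP motif TTGCNNAA, the AP-1 motif TGANTCA or the PU.1 motif GAGGAAGT on either strand. MALAT1 (chr11:65497540-65497839) and MIR17HG (chr13:91348677-91348976) are G and C rich promoters, with 71.3% and 81.7% GC. MIR155HG (chr21:25561848-25562147), ITGB2-AS1 (chr21:44927412-44927711) and CYTOR (chr2:87455484-87455783) each hold TGCAGAA once, and in MIR155HG it lies inside a C/EBP match. The printed peaks are not typical in this, since TGCAGAA was in 43 of all 744 such MV4-11 peaks (5.78%), against 5.83% of all MV4-11 peaks. LINC01814 (chr2:8545359-8545658) had the widest U937 peak of the class and holds none of the 4 motifs, and LINC02132 (chr16:85936094-85936393), with IRF8 as the nearest coding gene, holds the PU.1 letters.
MALAT1: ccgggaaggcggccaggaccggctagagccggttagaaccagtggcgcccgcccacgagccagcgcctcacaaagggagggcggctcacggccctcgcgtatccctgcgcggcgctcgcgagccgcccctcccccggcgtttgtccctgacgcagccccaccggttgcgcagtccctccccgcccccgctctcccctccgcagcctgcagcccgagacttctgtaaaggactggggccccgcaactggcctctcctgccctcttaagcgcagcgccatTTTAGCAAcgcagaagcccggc
MIR17HG: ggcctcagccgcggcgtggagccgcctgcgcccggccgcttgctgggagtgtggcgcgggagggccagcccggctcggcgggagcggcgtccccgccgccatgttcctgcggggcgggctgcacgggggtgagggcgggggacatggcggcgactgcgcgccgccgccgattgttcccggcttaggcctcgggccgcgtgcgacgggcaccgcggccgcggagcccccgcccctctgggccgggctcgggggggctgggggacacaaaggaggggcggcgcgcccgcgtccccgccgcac
MIR155HG: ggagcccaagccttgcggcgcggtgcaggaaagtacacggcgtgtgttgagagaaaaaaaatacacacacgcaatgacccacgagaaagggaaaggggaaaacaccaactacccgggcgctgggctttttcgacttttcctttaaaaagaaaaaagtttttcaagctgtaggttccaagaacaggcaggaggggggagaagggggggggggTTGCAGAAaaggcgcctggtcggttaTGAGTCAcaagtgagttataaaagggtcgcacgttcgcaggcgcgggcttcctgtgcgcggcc
ITGB2-AS1: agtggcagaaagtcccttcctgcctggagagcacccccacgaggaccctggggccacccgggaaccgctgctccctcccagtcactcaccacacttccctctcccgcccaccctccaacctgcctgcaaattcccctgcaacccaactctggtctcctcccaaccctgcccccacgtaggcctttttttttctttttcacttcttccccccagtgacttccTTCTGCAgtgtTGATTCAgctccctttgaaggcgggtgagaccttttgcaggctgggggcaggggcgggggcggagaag
CYTOR: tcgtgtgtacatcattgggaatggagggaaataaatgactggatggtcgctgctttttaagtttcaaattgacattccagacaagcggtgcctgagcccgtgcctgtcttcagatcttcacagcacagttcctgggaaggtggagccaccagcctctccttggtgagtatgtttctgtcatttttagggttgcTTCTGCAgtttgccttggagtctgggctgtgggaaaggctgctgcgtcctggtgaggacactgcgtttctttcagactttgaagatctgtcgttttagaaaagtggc
LINC01814: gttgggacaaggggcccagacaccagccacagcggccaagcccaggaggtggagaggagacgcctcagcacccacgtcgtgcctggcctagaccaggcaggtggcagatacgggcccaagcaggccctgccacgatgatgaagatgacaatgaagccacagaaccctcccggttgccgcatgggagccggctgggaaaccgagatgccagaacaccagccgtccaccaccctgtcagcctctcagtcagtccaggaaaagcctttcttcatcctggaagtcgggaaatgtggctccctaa
LINC02132: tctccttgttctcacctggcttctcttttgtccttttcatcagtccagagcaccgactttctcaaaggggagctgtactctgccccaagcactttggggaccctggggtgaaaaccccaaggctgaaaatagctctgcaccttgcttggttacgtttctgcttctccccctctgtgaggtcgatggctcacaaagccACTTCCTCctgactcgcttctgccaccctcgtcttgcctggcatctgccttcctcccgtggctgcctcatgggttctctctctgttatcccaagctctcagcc

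Several of the promoters belong to microRNA host genes, whose products are shown here as mature sequences from RefSeq (GRCh38.p14) with the seed, bases 2 to 8, in capitals. Those of the hosts MIR17HG, MIR155HG, MIRLET7A1HG, MIRLET7IHG, MIR3142HG, DLEU2 and MIR142HG, all of which had a peak over the promoter in both lines, are given first.
miR-17-5p: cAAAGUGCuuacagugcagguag
miR-20a-5p: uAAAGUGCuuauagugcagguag
miR-18a-5p: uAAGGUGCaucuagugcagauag
miR-19a-3p: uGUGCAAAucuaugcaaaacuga
miR-19b-3p: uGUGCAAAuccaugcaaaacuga
miR-92a-3p: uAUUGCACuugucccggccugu
miR-155-5p: uUAAUGCUaaucgugauagggguu
let-7a-5p: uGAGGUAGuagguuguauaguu
let-7f-5p: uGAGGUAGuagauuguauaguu
let-7d-5p: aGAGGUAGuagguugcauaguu
let-7i-5p: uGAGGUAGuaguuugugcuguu
miR-146a-5p: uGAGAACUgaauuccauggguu
miR-15a-5p: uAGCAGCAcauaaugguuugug
miR-16-5p: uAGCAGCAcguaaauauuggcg
miR-142-3p: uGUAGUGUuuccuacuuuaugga
miR-142-5p: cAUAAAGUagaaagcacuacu
The following come from MIR223HG, with a peak in MV4-11 alone, and from MIR29B2CHG, with peaks of the class in U937 alone.
miR-223-3p: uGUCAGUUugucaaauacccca
miR-29b-3p: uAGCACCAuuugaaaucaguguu
miR-29c-3p: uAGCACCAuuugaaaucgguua
By shared seed, miR-17 and miR-20a, miR-19a and miR-19b, miR-15a and miR-16, miR-29b and miR-29c, and the let-7 members form groups, so that the MIR17HG transcript yields microRNAs of several seed families. MiR-155 and miR-142 are microRNAs of blood cells, miR-223 is typical of granulocytes and monocytes, and miR-146a dampens NF-kB signalling.

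LncRNA promoter peaks made up a similar small share of both lists and were more often common to both lines than peaks away from promoters, but less often than coding promoter peaks. They were 4.63% of MV4-11 peaks (4.42 to 4.86) and 4.81% of U937 peaks (4.53 to 5.10). There were 1.61 times as many in MV4-11 as in U937 (1.49 to 1.74), beside a ratio of 1.67 for all peaks, 1.34 for coding promoter peaks (1.30 to 1.37) and 2.0 for other peaks (1.95 to 2.05). The ratio of this class thus lay above that of coding promoters and below that of the other peaks, and the interval held the ratio of all peaks. With only the 21737 widest MV4-11 peaks kept, as many as in U937, the ratio was 1.07 (0.979 to 1.16), an interval that held 1.

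Peaks of both lines with 1 bp or more in common were called shared. In MV4-11, 744 of the 1685 lncRNA promoter peaks were shared, or 44.2% (41.8 to 46.5), against 40.4% of all MV4-11 peaks, 64.5% of coding promoter peaks and 24.7% of other peaks. In U937, 749 of 1045 were shared, or 71.7% (68.9 to 74.3), against 68.6% of all U937 peaks, 87.9% of coding promoter peaks and 49.8% of other peaks. The difference from coding promoter peaks was -20.4 percentage points in MV4-11 (-22.8 to -17.8) and -16.3 in U937 (-19.1 to -13.5), and the difference from other peaks was 19.5 points in MV4-11 (17.1 to 21.9) and 21.8 points in U937 (18.9 to 24.7). The peaks found in 1 line alone numbered 941 in MV4-11 and 296 in U937, a ratio of 3.18 (2.79 to 3.64) that matched the 3.18 of all unshared peaks. Since MV4-11 had the longer list, the share of each list that can be matched differs by construction, and the difference in depth behind it is unknown.

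**Figure D1:**
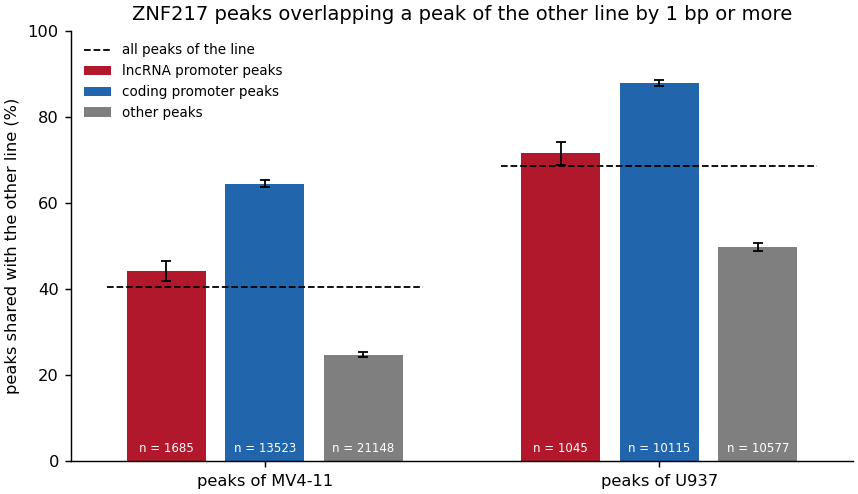
Share of ZNF217 peaks that overlap a peak of the other line, for lncRNA promoter peaks, coding promoter peaks and other peaks of MV4-11 (left) and U937 (right). Bars start at 0, whiskers are 95% Wilson intervals and dashed lines mark all peaks of the line. LncRNA promoter peaks (44.2% in MV4-11 and 71.7% in U937) lie between the other classes in both lines.

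Most partners were of the same class. Of the 744 shared MV4-11 peaks, 686 had a U937 lncRNA promoter peak as the widest partner, 24 a coding promoter peak and 34 an other peak, and of the 749 shared U937 peaks the numbers were 680, 26 and 43. The MV4-11 peak was wider than its partner in 451 of its 744 pairs and narrower in 291. Spearman's rho between the widths of partners was 0.43 over the 744 MV4-11 peaks and 0.44 over the 749 U937 peaks, as a description over peaks of the same 2 libraries.

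Peaks at lncRNA promoters were narrower than those at coding promoters and wider than those elsewhere. The median width was 699 bp in MV4-11 (666 to 730) and 719 bp in U937 (686 to 762), compared with 880 and 868 bp at coding promoters and 517 and 542 bp at other peaks. MV4-11 members were 283 to 7510 bp wide and U937 members 330 to 4324 bp, where 283 and 330 bp were also the lowest widths of the whole lists. At least 1 kb was reached by 509 MV4-11 peaks (30.2%, 28.1 to 32.4) and 315 U937 peaks (30.1%, 27.4 to 33.0), against 25.6% and 27.6% of all peaks. The difference from coding promoters in that share was -12.2 points in MV4-11 (-14.5 to -9.81) and -9.78 points in U937 (-12.6 to -6.77).

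**Figure D2:**
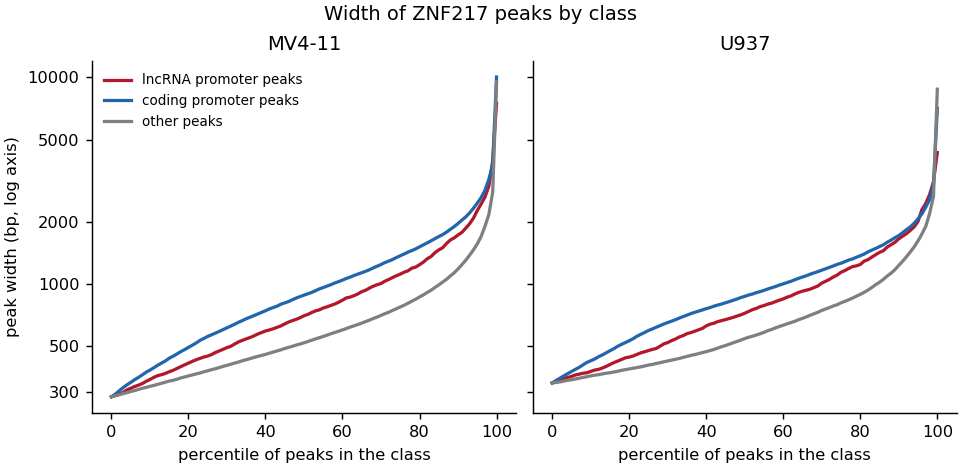
Width of ZNF217 peaks (bp, log axis) against percentile within the class, for MV4-11 (left) and U937 (right). The curve of the lncRNA promoter peaks, with medians of 699 and 719 bp, runs between those of the coding promoter peaks and the other peaks up to the widest few percent.

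Wide lncRNA promoter peaks were shared far more often than narrow ones. In MV4-11 the median width was 994.5 bp for shared members and 547 bp for members of MV4-11 alone, and in U937 it was 856 bp for shared members and 481 bp for members of U937 alone. In MV4-11 the share shared was 20.3% below 500 bp, 33.6% from 500 to below 750 bp, 52.7% from 750 to below 1000 bp, 66.5% from 1000 to below 1500 bp and 79.5% from 1500 bp. The corresponding U937 shares were 46.9%, 69.2%, 78.5%, 90.4% and 95.7%. A wider peak also has more bases with which to overlap. Within the same width class, lncRNA promoter peaks of MV4-11 remained below coding promoter peaks in each of the classes, by between -7.15 points (-10.8 to -3.16) below 500 bp and -18.9 points (-25.2 to -12.7) from 750 to below 1000 bp. In U937 the difference was -19.7 points below 500 bp (-25.8 to -13.6), and from 1500 bp it was -2.17 points with an interval that held 0 (-7.02 to 0.32).

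**Figure D3:**
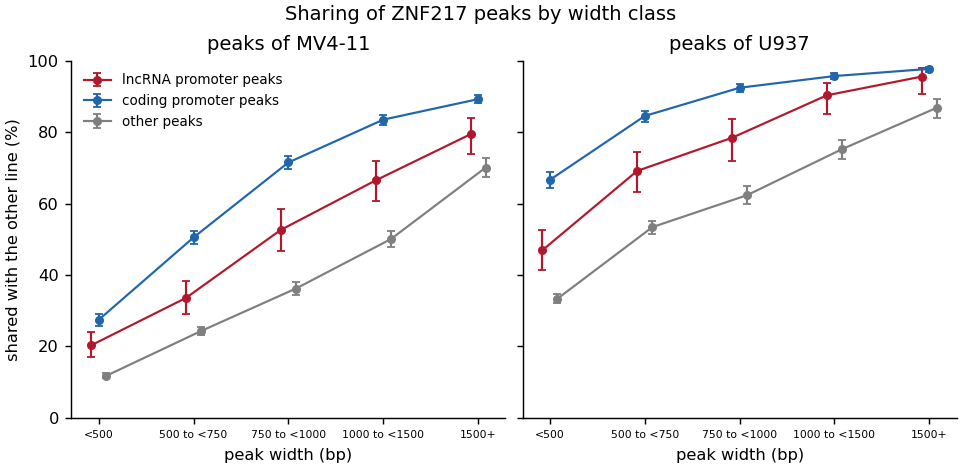
Share of peaks that overlap a peak of the other line by width class (bp), for MV4-11 (left) and U937 (right), with 95% Wilson intervals. The lncRNA promoter peaks climb to 79.5% in the widest MV4-11 class, against 20.3% in the narrowest, and to 95.7%, against 46.9%, in U937, between the coding promoter peaks and the other peaks in each class.

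The annotation held 18756 lncRNA genes, of which 15424 had a TSS more than 1 kb from any coding TSS. A lncRNA promoter peak was found at 1661 genes in MV4-11 (8.86% of all lncRNA genes) and at 1099 in U937 (5.86%). Both lines had one at 787 genes (4.20%), MV4-11 alone at 874 and U937 alone at 312. Thus 71.6% of the U937 genes (68.8 to 74.3) and 47.4% of the MV4-11 genes (45 to 49.8) were on the list of the other line. Most of the genes had 1 such peak (1494 in MV4-11 and 1018 in U937), and 179 peaks in MV4-11 and 132 in U937 lay at more than 1 lncRNA gene, up to 4. For 970 MV4-11 peaks and 578 U937 peaks none of the lncRNAs had a gene symbol. The midpoint lay within 250 bp of the TSS for 49.9% of the MV4-11 peaks and 52.1% of the U937 peaks.

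Kinds of lncRNA differed in the share of genes with a peak of the class. They also differed in how many genes had a TSS more than 1 kb from every coding TSS. Among the snoRNA host genes, 15 of 30 had a lncRNA promoter peak in MV4-11 (50%, 31.3 to 68.7) and 11 in U937 (36.7%, 19.9 to 56.1). Of the microRNA host genes 22 of 83 had one in MV4-11 (26.5%, 17.4 to 37.3) and 20 in U937 (24.1%, 15.4 to 34.7). Genes named LINC, the intergenic lncRNAs, were occupied in 248 of 2258 cases in MV4-11 (11.0%, 9.72 to 12.4) and in 180 in U937 (7.97%, 6.89 to 9.17), and genes without a symbol in 1034 of 13067 cases in MV4-11 (7.91%, 7.46 to 8.39) and in 649 in U937 (4.97%, 4.60 to 5.35). Antisense genes named -AS had a peak in 153 of 1838 cases in MV4-11 (8.32%, 7.10 to 9.68) and in 98 in U937 (5.33%, 4.35 to 6.46). Only 19 and 11 of the 589 divergent transcripts named -DT entered the class, and 157 of them have a TSS more than 1 kb from every coding TSS, while 430 in MV4-11 and 391 in U937 had a peak of any class with its midpoint within 1 kb of the TSS. Of the occupied U937 genes, 78.9% of LINC genes (72.2 to 84.6) and 62.2% of antisense genes (51.9 to 71.8) also had a lncRNA promoter peak in MV4-11.

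The broadly expressed lncRNAs, a list that includes abundant nuclear RNAs, were mostly occupied, and at the same genes in both lines. Of the 15 found in the annotation, the same 12 had a lncRNA promoter peak in MV4-11 and in U937, and a peak of any class touched the 1 kb window around a TSS in all 15 in both lines, against 22.8% of all lncRNA genes in MV4-11 and 18.1% in U937. At NEAT1, the scaffold of nuclear paraspeckles, the widest peak measured 2398 bp in MV4-11 and 2289 bp in U937. MALAT1, a nuclear speckle RNA, had a peak in each line, 1853 bp wide in MV4-11 and 1661 bp wide in U937. TERC, the RNA template of telomerase, had 969 bp in MV4-11 and 854 bp in U937. NORAD, which sequesters Pumilio proteins, had 762 bp in MV4-11 and 363 bp in U937, and KCNQ1OT1, the imprinted antisense RNA of the KCNQ1 domain, 1286 bp in MV4-11 and 559 bp in U937. FTX and JPX, both of the X inactivation centre, differed in direction, with 960 bp in MV4-11 and 362 bp in U937 at FTX and 422 bp in MV4-11 and 655 bp in U937 at JPX. DANCR, EPB41L4A-AS1, PVT1, LINC-PINT and CYTOR completed the list, and OIP5-AS1, CRNDE and MIAT had peaks on the window that did not meet the rule.

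The snoRNA host genes carry snoRNAs, guides of ribosomal RNA modification, in their introns. A lncRNA promoter peak was present in both lines at 10 of the 30, beside 4.20% of all lncRNA genes. They were SNHG6, SNHG8, SNHG12, SNHG15, SNHG16, SNHG17, SNHG21, SNHG25, SNHG26 and SNHG29. The widest was at SNHG12, with 3218 bp in MV4-11 and 1509 bp in U937, while SNHG6 had 1324 bp in MV4-11 and 1713 bp in U937. For GAS5, SNHG1, SNHG3, SNHG5 and 7 others the peak lay within 1 kb of a coding TSS and was excluded by the rule. SNHG7 had a peak of 2630 bp in MV4-11 and ZFAS1 had peaks of 1413, 844 and 293 bp in MV4-11, and neither had a U937 peak of the class, although a U937 peak of 1523 bp touched the window of ZFAS1. With any peak on the window counted, 26 of the 30 were occupied in MV4-11 and 23 in U937, and 22 in both, beside 22.8% and 18.1% of all lncRNA genes in MV4-11 and U937.

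Some microRNA hosts had a lncRNA promoter peak in both lines and others in 1 line alone. Of the U937 hosts, 60.0% (36.05 to 80.9) also had one in MV4-11, beside 71.6% of all U937 lncRNA genes with such a peak. Of the MV4-11 hosts, 54.55% (32.2 to 75.6) also had one in U937, beside 47.4%. Both lines had a lncRNA promoter peak at 12 of the 83, beside 4.20% of all lncRNA genes. Among them was MIR17HG, the host of the proliferative miR-17 to miR-92a cluster. There MV4-11 had 2 peaks, the wider of 1071 bp, under a single U937 peak of 2290 bp. MIR155HG had a peak in each line, 1200 bp wide in MV4-11 and 514 bp wide in U937, and MIR3142HG, from which miR-146a is made, 325 bp in MV4-11 and 693 bp in U937. MIRLET7A1HG had 1655 bp in MV4-11 and 962 bp in U937, and MIRLET7IHG 1240 bp in MV4-11 and 1426 bp in U937. MIR1302-2HG, near the end of chromosome 1, lies in a segment with near-identical copies on other chromosomes, so that its 1260 bp peak in MV4-11 and 475 bp peak in U937 are uncertain in position.

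Of the 10 microRNA hosts with such a peak in MV4-11 alone, MIR23AHG and MIR200CHG were nevertheless touched by a U937 peak. The MV4-11 peak at MIR23AHG, the transcript of miR-23a, miR-27a and miR-24, measured 3940 bp and overlapped a U937 peak of 1056 bp whose midpoint lay more than 1 kb from the TSS. At MIR200CHG the MV4-11 peak of 3954 bp overlapped a U937 peak of 2637 bp. The other 8, MIR223HG (453 bp), MIR124-1HG (1699 bp at the widest), MIR1915HG (1493 bp), MIRLET7BHG (975 bp), MIR210HG (741 bp), MIR181A2HG (451 bp), MIR194-2HG (476 bp) and MIR3681HG (353 bp), had no U937 peak on the window. In U937 alone the rule found 8 hosts, and again some were a matter of the midpoint. At MIR142HG an MV4-11 peak of 7510 bp (chr17:58326711-58334221), with its midpoint at TSPOAP1-AS1, covered the U937 peak of 3336 bp (chr17:58330719-58334055). An MV4-11 peak of 2132 bp touched the window of MIR22HG, where the U937 peak of the class was 676 bp wide, and one of 871 bp touched that of MIR646HG, with 535 bp in U937. MIR29B2CHG, whose microRNAs belong to the miR-29 family, had no MV4-11 peak on the window and U937 peaks of 2082 and 669 bp, the wider of which overlapped an MV4-11 peak of 346 bp away from the TSS. No MV4-11 peak touched the window of MIR193BHG (607 bp at the widest), MIR663AHG (471 bp), MIR3667HG (435 bp) or MIR3150BHG (343 bp) either. With any peak on the window counted, 31 of the 83 hosts were occupied in MV4-11 and 28 in U937, and 22 in both. Over all lncRNA genes a peak touched the window of 22.8% in MV4-11 and 18.1% in U937.

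Of 28 blood and inflammation lncRNAs, 14 had a lncRNA promoter peak in MV4-11 and 11 in U937, beside 8.86% and 5.86% of all lncRNA genes. Both lines had one at 8 of the 28, beside 4.20% of all lncRNA genes, MV4-11 alone at 6 and U937 alone at 3. DLEU2, the host of miR-15a and miR-16 on chromosome 13, had a widest peak measuring 2625 bp in MV4-11 and 2959 bp in U937, and its neighbour DLEU1 1950 bp in MV4-11 and 1221 bp in U937. ITGB2-AS1, antisense to the leukocyte integrin gene ITGB2, had 1322 bp in MV4-11 and 2799 bp in U937. CCDC26, a lncRNA gene on chromosome 8 known from myeloid leukemia, had 5 peaks in MV4-11, of 1462, 926, 504, 334 and 307 bp, and 1 in U937, of 349 bp. MIR4435-2HG and CYTOR are near-identical copies on chromosome 2, so that reads may be split between them. MIR4435-2HG had 4 peaks in MV4-11 and 1 in U937, and CYTOR 3 in MV4-11 and 4 in U937. CEBPA-DT, CASC15 and EGOT had a peak of the class in MV4-11 (325, 723 and 1047 bp) and no U937 peak on the window. SENCR and CD27-AS1 were also called in MV4-11 alone, but a U937 peak of 2485 bp touched the window of SENCR and one of 1300 bp that of CD27-AS1. LUCAT1, a lncRNA induced in stimulated myeloid cells, had 468 bp in U937 with no MV4-11 peak on the window, and TRAF3IP2-AS1 had 572 bp in U937 while an MV4-11 peak of 2274 bp touched the window.

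At the HOX clusters, a lncRNA promoter peak was found at 3 of 18 annotated lncRNAs in MV4-11, HOTTIP (652 bp), HOTAIR (361 bp) and HOXC-AS3 (564 bp), and at 0 of 18 in U937, which allows a share of up to 16.7%. Over all lncRNA genes the shares were 8.86% in MV4-11 and 5.86% in U937. This difference depended on the midpoint, since U937 had wider peaks there whose midpoints did not meet the rule. The MV4-11 peaks at HOTTIP and HOXC-AS3 overlapped U937 coding promoter peaks of 4269 and 3056 bp. At HOXA-AS3 the peak on the window was 313 bp wide in MV4-11 and 8776 bp in U937 at the widest. With any peak on the window counted, 7 HOX lncRNAs were occupied in MV4-11 and 6 in U937, beside 22.8% and 18.1% of all lncRNA genes, and all 6 of these were among the 7. HOTAIR was the exception. None of the HOXB and HOXD lncRNAs listed was touched in either line.

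A list of lncRNAs of other lineages was also counted. A lncRNA promoter peak was found at 0 of 20 in each line, which allows a share of up to 15.0%. That limit held the 8.86% and 5.86% of all lncRNA genes, so the count does not set the list apart from them. At 16 of the 20 no peak touched a window in either line, including H19, MEG3, DLX6-AS1, FENDRR and PCA3. The exceptions were HULC and SOX2-OT in both lines, PCAT1 in MV4-11 alone (351 bp) and SOX21-AS1 in U937 alone (536 bp), all with the peak near a coding TSS.

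Over the lists, 40 lncRNAs had a peak of the class in both lines, and the widest was wider in MV4-11 for 27 and wider in U937 for 13. Of all 744 shared MV4-11 peaks of the class, 451 were wider than their U937 partner. Only the widest peak of each gene was compared. Some genes had more peaks in MV4-11, such as CCDC26 (5 against 1), and others in U937, such as CYTOR (3 against 4).

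**Figure D4:**
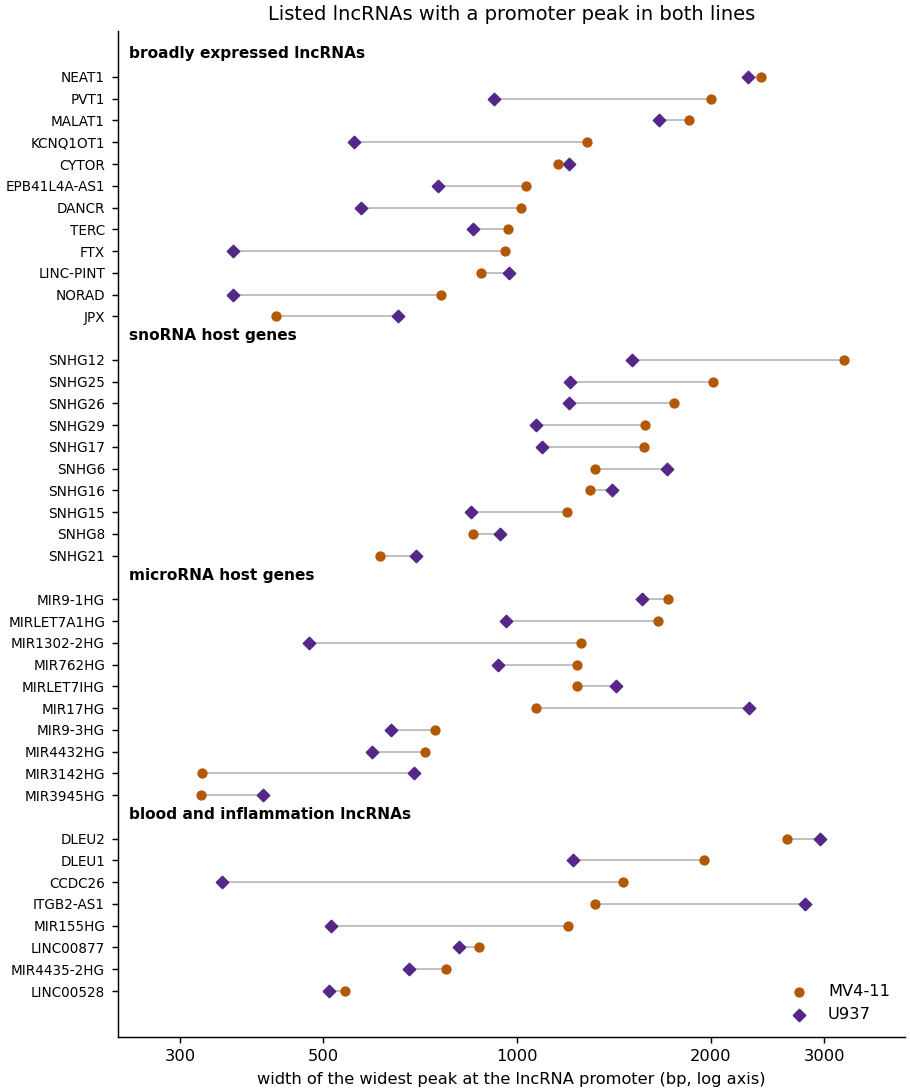
Width (bp, log axis) of the widest ZNF217 peak of the class at each listed lncRNA with such a peak in both lines, MV4-11 as circles and U937 as diamonds, joined by a line; MIR155HG and MIR4435-2HG, which are on 2 lists, are drawn once. Of the 40 lncRNAs 27 are wider in MV4-11, beside 451 of all 744 shared MV4-11 peaks of the class. SNHG12 (3218 bp in MV4-11), DLEU2 (2959 bp in U937) and ITGB2-AS1 (2799 bp in U937) hold the widest peaks.

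The widest peaks of the class lay at lncRNAs outside these lists, except for MIR142HG. In MV4-11 the widest were at TSPOAP1-AS1, with 7510 and 5540 bp side by side at the MIR142HG locus, followed by MVP-DT (4903 bp), IER5L-AS1 (4715 bp), MGC16275 (4665 bp), GASAL1 (4615 bp), THBS3-AS1 (4501 bp) and LINC02580 (4474 bp). All 8 overlapped a U937 peak, of 3336, 2281, 781, 837, 3617, 3151, 882 and 1939 bp in that order. The partners of MVP-DT and THBS3-AS1 were coding promoter peaks. In U937 the widest were at LINC01814 (4324 bp), PELATON (4255 bp), ENSG00000269968 near GAPDH (3780 bp), DRAIC (3686 bp), PRADX (3593 bp), LINC02870 (3534 bp), a pair without symbols near KDM6B (3370 bp) and MIR142HG (3336 bp), and all 8 overlapped an MV4-11 peak. LINC01814 was alike between the lines, with 4064 bp in MV4-11 and 4324 bp in U937, whereas PELATON, a lncRNA of monocytes and macrophages, had 1141 bp in MV4-11 and 4255 bp in U937.

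Among peaks without an overlap, the widest in MV4-11 were at DSCR9 (2967 bp), TEDC2-AS1 (2916 bp), LINC01679 (2843 bp), CACTIN-AS1 (2636 bp) and SNHG7 (2630 bp). Their U937 counterparts were narrower, with ENSG00000272382 near ANXA2R (2229 bp), ENSG00000291066 near NPIPB4 (1762 bp), LINC00926 (1746 bp), ENSG00000245869 in an intron near CXCR5 (1724 bp) and LINC01036 (1707 bp). NPIPB4 belongs to a family of near-identical copies on chromosome 16, so that the position of that peak is uncertain. LINC00926 is a lncRNA of B cells.

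Some lncRNA genes with several annotated starts held several peaks. CCDC26, PVT1, SLC9A3-AS1 and TRG-AS1 had 5 each in MV4-11, followed by ENSG00000261218, ENSG00000285756, LINC00869, LINC00963 and MIR4435-2HG with 4. In U937 CYTOR had 4, ENSG00000261222, LINC-PINT and PELATON had 3, and 77 genes had 2. At PVT1, downstream of MYC, the 5 MV4-11 peaks measured 1391, 352, 2004, 1449 and 777 bp along the gene and the 2 U937 peaks 601 and 920 bp, and both U937 peaks overlapped an MV4-11 peak. The 3 LINC-PINT peaks of U937 (574, 974 and 441 bp) each overlapped 1 of the 3 MV4-11 peaks (560, 846 and 880 bp), and 2 of the 3 pairs began at the same base.

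The rule keeps lncRNA promoter peaks more than 1 kb from every coding TSS, so part of their distance was fixed in advance. The other peaks are also more than 1 kb away. The median distance of lncRNA promoter peaks to the nearest coding TSS was 18210 bp in MV4-11 (16461 to 20173) and 18942 bp in U937 (16936 to 22078). For other peaks it was 9550.5 bp in MV4-11 (9293 to 9853) and 11572 bp in U937 (11075 to 12045). The midpoint of lncRNA promoter peaks was outside any coding gene for 1261 MV4-11 peaks (74.8%) and 820 U937 peaks (78.5%), in an intron for 314 and 188, and in an exon for 110 and 37. These places were not counted for other peaks. In MV4-11 the exonic members were shared least often, 23 of 110 (20.9%, 14.4 to 29.4), against 606 of the 1261 outside coding genes (48.1%, 45.3 to 50.8). In U937 the same shares were 22 of 37 (59.5%, 43.5 to 73.7) and 612 of 820 (74.6%, 71.5 to 77.5). By distance, the share shared in MV4-11 was 39.4% from 1 to 5 kb, 47.3% from 5 to 20 kb, 45.3% from 20 to 100 kb and 42.9% beyond 100 kb, with intervals that all overlapped. In U937 the shares were 74.8%, 74.0%, 71.5% and 62.7% in the same order. Where the midpoint lay inside a coding gene, the lncRNA ran opposite to that gene for 324 MV4-11 peaks. It ran in the same direction for 74, and 26 were mixed. In U937 the numbers were 165 opposite, 48 in the same direction and 12 mixed. The share of opposite strands over all annotated lncRNAs inside coding genes was not computed, so these counts are not read as a trait of the class.

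The nearest coding gene often carried a promoter peak too, but less often than the nearest coding gene of other peaks. In MV4-11, 71.9% of lncRNA promoter peaks (69.7 to 74.0) had a nearest coding gene with a coding promoter peak, against 57.6% of all coding genes and 76.4% for other peaks, a difference from other peaks of -4.55 points (-6.82 to -2.38). In U937 the share was 57.3% (54.3 to 60.3), against 49.5% of all coding genes and 65.0% for other peaks, a difference of -7.73 points (-10.9 to -4.62). The share was 71.9% for shared members and 71.8% for members of 1 line in MV4-11, and 59.0% for shared members and 53.0% for members of 1 line in U937.

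A list of 45 transcription factor and regulator genes of the blood system was chosen with earlier results of these data known. Of these genes, 17 were the nearest coding gene of a lncRNA promoter peak in MV4-11 and 12 in U937, 11 of them in both, and 27 in neither. Of all 19970 coding genes, 6.39% were the nearest of such a peak in MV4-11, 4.24% in U937 and 3.07% in both. These regulators were the neighbours of 35 peaks in MV4-11, of which 19 were shared (54.3%, beside 44.2% of the class), and of 21 in U937, of which 18 were shared (85.7%, beside 71.7% of the class). No interval was computed for these shares of few peaks. MYC, the growth regulator, had 6 in MV4-11 (CASC11 and the 5 at PVT1) and 2 in U937. For CEBPA, the granulocyte and monocyte regulator, MV4-11 had 3 peaks of 1674, 325 and 1119 bp at 1577, 1223 and 2540 bp from the TSS, none of them shared, and U937 1 peak of 1119 bp at 3520 bp, which overlapped an MV4-11 peak of 2332 bp outside the class. CEBPB had 4 in MV4-11 and 3 in U937, mostly at PELATON, where the overlapping peaks measured 1141 and 319 bp in MV4-11 and 4255 and 1108 bp in U937. IRF8, a monocyte factor, had 3 in each line, and at LINC02132 the MV4-11 peak measured 1330 bp and the U937 peak 413 bp. MEF2D, a member of the circuit, had 3 in each line, including MIR9-1HG with 1718 bp in MV4-11 and 1566 bp in U937 and ENSG00000289593 with 1541 bp in MV4-11 and 1291 bp in U937. For RUNX1 there was 1 in each line, at ENSG00000286153 (1139 bp in MV4-11 and 463 bp in U937), and so did RREB1, at ENSG00000288860 (1739 bp in MV4-11 and 1814 bp in U937). ZNF217 itself had 1 in MV4-11 alone, at ENSG00000287886, of 445 bp and 128730 bp from its TSS, and ELF1 had 1 in MV4-11 alone (757 bp at SUGT1P3). MEIS1, a cofactor of HOX proteins, had 1 in MV4-11, at MEIS1-AS2 (986 bp), which overlapped a U937 coding promoter peak of 3469 bp. RUNX2, FOXP1, MYB, SPI1, GATA2 and HOXA9 had none in either line.

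By base composition the class lay between coding promoters and the rest. The central 300 bp had a median GC content of 58.7% in MV4-11 (58.0 to 59.0) and 59.0% in U937 (58.3 to 60.0), compared with 64.7% and 65.0% at coding promoters and 54.0% and 54.7% at other peaks. The CpG ratio, the number of CpG dinucleotides over that expected from the C and G content, had a median of 0.39 in MV4-11 and 0.49 in U937, against 0.74 and 0.78 at coding promoters and 0.25 and 0.29 at other peaks. A ratio of at least 0.6, as in CpG islands, was found in 32.0% of MV4-11 members (29.9 to 34.3) and 41.8% of U937 members (38.9 to 44.8), against 29.5% and 40.6% of all peaks.

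Shared members were the CpG-rich ones more often. In MV4-11, 46.2% of shared members (42.7 to 49.8) and 20.8% of members of 1 line (18.4 to 23.5) reached 0.6, a difference of 25.4 points (20.9 to 29.8), and in U937 it was 48.9% of shared members (45.3 to 52.4) and 24.0% of members of 1 line (19.5 to 29.2), a difference of 24.9 points (18.6 to 30.6). Within CpG-rich peaks, 63.7% of the class were shared in MV4-11 and 83.8% in U937, below coding promoter peaks by -15.3 points (-19.6 to -11.3) in MV4-11 and -9.48 points (-13.3 to -6.27) in U937. Within CpG-poor peaks the shares were 34.9% in MV4-11 and 63.0% in U937, with differences of -4.03 points (-7.07 to -0.92) in MV4-11 and -11.2 points (-15.4 to -7.08) in U937. The difference from coding promoters was therefore present in both composition classes, and CpG-rich members were also wider than CpG-poor ones, with medians of 882.5 against 620.0 bp in MV4-11 and of 800.0 against 662.5 bp in U937.

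The central 300 bp of each peak was read on both strands for 17 consensus motifs. The ZNF217 core TGCAGAA was present in 97 MV4-11 members (5.76%, 4.74 to 6.97) and 51 U937 members (4.88%, 3.73 to 6.36), against 5.83% and 5.16% of all peaks 5.38% of 34961 RefSeq promoters of the same length and 6.20% of the 4100 among them whose symbol is that of a GENCODE lncRNA gene, called RefSeq lncRNA promoters here. These shares were near the background. Shared and unshared members held it at 5.78% and 5.74% in MV4-11 and at 5.21% and 4.05% in U937.

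Compared with coding promoter peaks, the class held the AP-1 and C/EBP motifs more often and the SP/KLF, ETS and YY1 motifs less often. The RUNX motif was also above (3.34 points in MV4-11, 1.8 in U937), as were GATA (3.29, 3.54), MYB (2.95, 2.74), IRF (2.34, 2.81) and MEF2 (0.84, 2.12). The CTCF motif was below (-1.9, -2.77). RUNX was in 6.83% of MV4-11 and 4.88% of U937 members, against 7.44% and 5.07% of all peaks. MEF2 was in 1.96% and 3.73%, against 2.72% and 5.63%. From other peaks RUNX differed by -3.2 points (-4.38 to -1.83) and -2.1 points (-3.39 to -0.58). MEF2 differed from them by -1.85 points (-2.47 to -1.03) and -5.92 points (-7.07 to -4.48). GATA (7.12%, 7.18%), MYB (11.7%, 10.8%) and IRF (7.54%, 8.04%) lay above their shares of all peaks. Against other peaks the AP-1 difference was -0.97 points (-2.42 to 0.65) in MV4-11 and -2.08 points (-4.07 to 0.16) in U937. For C/EBP it was -1.39 points (-2.91 to 0.29) in MV4-11 and -0.91 points (-2.79 to 1.24) in U937. The AP-1 motif TGANTCA was found in 10.6% of MV4-11 members and 12.4% of U937 members, against 8.91% and 9.92% of all peaks, and lay above coding promoter peaks by 5.97 points (4.54 to 7.57) in MV4-11 and 7.60 points (5.68 to 9.77) in U937. It was in 7.68% of all RefSeq promoters and 10.2% of those of lncRNA genes. The C/EBP motif TTGCNNAA was in 11.7% and 11.2%, against 10.6% and 9.40% of all peaks, and above coding promoters by 5.0 points (3.49 to 6.67) in MV4-11 and 4.80 points (2.96 to 6.91) in U937, with 10.4% of all RefSeq promoters and 11.0% of those of lncRNA genes. The SP/KLF motif GGGGCGGGG was in 8.72% and 8.33% of members, against 8.09% and 9.54% of all peaks, and below coding promoters by -8.09 points in MV4-11 and -8.77 points in U937. The ETS motif CCGGAAGT was in 1.42% and 2.58%, against 2.01% and 2.65% of all peaks and 4.39% and 4.87% of coding promoter peaks, and the YY1 motif AAGATGGCG in 0.36% and 0.48%, against 0.963% and 1.45% of all peaks and 2.28% and 2.80% of coding promoter peaks. Of all RefSeq promoters, 15.7% held the SP/KLF letters, 4.14% the ETS letters and 1.76% the YY1 letters, and of those of lncRNA genes 10.15%, 2.76% and 0.78%. The AP-1, C/EBP and SP/KLF shares of the class thus lay nearer to those of the RefSeq lncRNA promoters than to those of coding promoter peaks. This did not hold for every motif. The GATA, NF-Y, E-box and CRE shares lay nearer to coding promoter peaks in both lines. So did the CTCF share in MV4-11 and the ZNF217 core share in U937. For GATA, members had 7.12% in MV4-11 and 7.18% in U937. Coding promoter peaks had 3.83% and 3.64%, and RefSeq lncRNA promoters 12.4%. A match is a description of letters and shows no binding of the factor.

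Compared with members of 1 line, shared members held the SP/KLF, CRE and ETS motifs more often in both lines, the RUNX motif less often in MV4-11 and the MEF2 motif less often in U937. The SP/KLF motif was in 12.1% of shared members and 6.06% of members of 1 line in MV4-11, a difference of 6.04 points (3.29 to 8.92), and in 10.7% and 2.36% in U937, a difference of 8.32 points (5.16 to 11.0). The CRE motif TGACGTCA was in 2.29% and 0.43% in MV4-11, a difference of 1.86 points (0.78 to 3.23), and in 2.14% and 0.34% in U937, a difference of 1.8 points (0.05 to 3.13), against 0.776% of all MV4-11 peaks, 0.994% of all U937 peaks and 1.78% of RefSeq lncRNA promoters. The ETS motif differed by 1.30 points (0.14 to 2.68) in MV4-11 and by 2.19 points (0.0034 to 3.85) in U937. Of the 296 members of U937 alone, 1 held the CRE and 3 the ETS motif, and the intervals were not widened for the number of motifs. The SP/KLF, CRE and ETS letters each hold a CpG, and a part played by the higher CpG ratio of shared members was not tested. The RUNX motif TGTGGTT was in 4.17% of shared MV4-11 members and 8.93% of those in MV4-11 alone, a difference of -4.76 points (-7.09 to -2.39), against 7.44% of all MV4-11 peaks, while in U937 it was in 5.21% of shared members and 4.05% of those in U937 alone, a difference of 1.15 points (-2.05 to 3.67), against 5.07% of all U937 peaks. The MEF2 motif TATTTNTAG was in 2.54% of shared U937 members and 6.76% of those in U937 alone, a difference of -4.22 points (-7.79 to -1.50), against 5.63% of all U937 peaks, while in MV4-11 it was in 2.02% of shared members and 1.91% of those in MV4-11 alone, against 2.72% of all MV4-11 peaks. Of the RefSeq promoters, 4.28% held the RUNX letters and 1.30% the MEF2 letters. For the other 12 of the 17 motifs the intervals held 0 in both lines, and no difference between the lines was tested. Among those 12, the AP-1 motif had differences between shared members and members of 1 line of 1.78 points (-1.16 to 4.83) in MV4-11 and -3.38 points (-8.35 to 0.99) in U937.

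**Figure D5:**
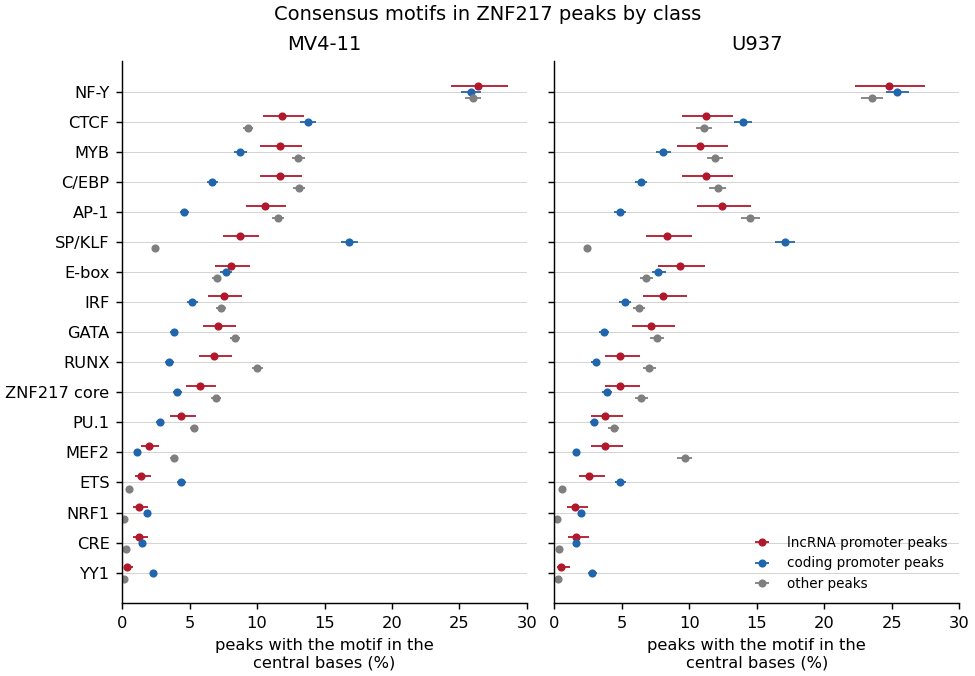
Share of peaks (%) with each of 17 consensus motifs in the central 300 bp, for MV4-11 (left) and U937 (right), with 95% Wilson intervals. The lncRNA promoter peaks lie near the other peaks for AP-1 (10.6% in MV4-11 and 12.4% in U937) and between the other classes for SP/KLF (8.72% in MV4-11 and 8.33% in U937).

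A few members have an uncertain position or lie at the limit of the rule. On the short arm of chromosome 21, where ribosomal and other repeated sequence is placed, there were 13 members in MV4-11 (342 to 3877 bp, 6 shared) and 8 in U937 (432 to 3124 bp, 7 shared). The members closest to the 1 kb limit in MV4-11 lay at 1000, 997 and 996 bp from a lncRNA TSS, and the peaks just outside it at 1006, 1007 and 1008 bp. In U937 the members closest to it lay at 999, 995 and 994 bp, and the peaks just outside at 1003, 1004 and 1013 bp.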

How the data were processed

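ZNF217 CUT&Tag peak lists of MV4-11 and U937 (1 library each) were used, with groups taken from the sample titles. Per the labels and the study's methods, alignment was to hg38 with Bowtie2 2.4.4, and MACS3 3.0 called the peaks of each library (versions from the submitters' processing notes). Use of the IgG control, removal of duplicates and blacklisting are not given in the sources used here. The authors deposited no counts or signal. The deposited columns hold another kind of value (unit: other), the chromosome, start and end of a peak in bp. Whether the start counts from 0 or 1 is not stated, which leaves 1 bp of uncertainty. Depth is unknown, and precision follows from the numbers of peaks.

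Of 37635 MV4-11 and 22521 U937 peaks, 36356 and 21737 lay on chromosomes 1 to 22 and X. TSSs came from GENCODE 44, counting all transcripts of lncRNA and protein-coding genes. The rule's words on coding TSSs were read as all transcripts of protein-coding genes. Tools were pysam 0.24.0, SciPy 1.17.1, pandas 2.3.3, NumPy 2.4.6, samtools 1.23.1 and Matplotlib 3.10.9 under Python 3.11.15, and overlaps were checked against bedtools 2.31.1 on simulated data. The motifs, searched on both strands, were TGCAGAA (ZNF217 core), CCGGAAGT (ETS), GAGGAAGT (PU.1), TGTGGTT (RUNX), TTGCNNAA (C/EBP), TGANTCA (AP-1), TGACGTCA (CRE), GCGCATGCG (NRF1), AAGATGGCG (YY1), GGGGCGGGG (SP/KLF), AGATAA (factors of the GATA family), CAACTG (MYB), CACGTG (E-box), CNAGGNGGC (CTCF), TATTTNTAG (MEF2), GAAANNGAA (IRF) and CCAAT (NF-Y). RefSeq promoters run from 250 bases before to 50 after the start.

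Named were listed lncRNAs with a peak of the class, the 8 widest peaks, the 5 widest without overlap and the 5 genes with most peaks per line, peaks whose nearest coding gene was 1 of 45 regulators, and the 3 peaks nearest the limit on either side. Where more genes tied for the fifth place than the rule takes, the tied ones are named too, except for 77 U937 genes with 2 peaks each, which are counted. The members, the 6 lists and the 45 regulators were chosen with earlier results of these data known. Alternatives varied the overlap, the TSS window, the annotation, the width and the list length.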

Additional observations from a re-analysis of the deposited data

How the results depend on the processing

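No paired analysis was possible because the labels give 1 ZNF217 library per line and no replicate numbers. Of 156 recomputed values with an interval, 111 stayed within the interval of the reported value, 45 moved further and 0 changed direction. Only the ratio and the differences in share shared have a direction that could change. Shares, medians, GC and distances have none. Of 50 recomputed counts, which have no interval, 48 stayed within 1.5 times the reported count and 2 did not. With a reciprocal overlap of 50%, the share shared was 29.6% in MV4-11 and 47.9% in U937. With lists of equal length (the widest MV4-11 peaks kept), MV4-11 had 1114 members, the ratio was 1.07 (0.979 to 1.16), members were 5.12% of MV4-11 peaks, 55.7% were shared in MV4-11 and 60.7% in U937, the difference from coding promoter peaks in U937 was -19.7 points, the MV4-11 median width was 951 bp, 504 genes were occupied in MV4-11 only and MV4-11 GC was 59.3%.

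With 500 bp for both gene types the ratio was 1.48, members were 3.63% (MV4-11) and 4.09% (U937) of peaks, 48.8% and 75.5% were shared, median widths were 746 and 771 bp and GC was 59.7% and 60.7%. More than 5 kb from coding TSSs, members were 3.53% and 3.81% of peaks, at median distances of 28884 and 29180 bp. With 1 canonical TSS per gene, 46.7% and 76.1% were shared, the difference from coding promoters was -30.2 points in MV4-11, the distance was 21263 bp in MV4-11, the width was 769 bp in U937 and GC was 60.0% and 60.3%. Any overlap with the window gave 5.03% and 5.16% of peaks. Peaks of at least 400 bp gave 4.88% in MV4-11, with median widths of 815 and 808 bp. Merging peaks less than 500 bp apart gave a width of 744.5 bp in MV4-11. In the central 200 bp the ZNF217 core was in 3.92% and 3.35%.

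The following were chosen after seeing the data. With coding TSSs of protein_coding transcripts only, members were 4.88% of MV4-11 peaks, the difference from coding promoters was -26.9 points in MV4-11 and distances were 20658 and 22202 bp. With GENCODE basic transcripts the difference was -28.4 points in MV4-11, distances were 20926 and 23773 bp and MV4-11 GC was 59.3%. Without the short arm of chromosome 21 nothing moved beyond its interval. Without replicates, heights or depths, differences between the lines cannot be told apart from differences between libraries.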
